A study of Mus musculus with 18 samples.

Results

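Open chromatin was described at 8 genes of simple epithelium in sorted lung cells of mice given an inhibitor of the histone methyltransferase G9a (G9ai) or vehicle. The genes were the simple keratin genes Krt7, Krt8, Krt18 and Krt19, the adhesion genes Cdh1, Epcam and Dsp, and the protease inhibitor gene Spint2, out of 21887 protein-coding genes. Every deposited peak was taken that overlapped the RefSeq span of one of them (assembly GRCm38.p6, which is build mm10) or the 10 kb on either side. Of 55642 listed peaks in 10 libraries, 63 met this rule, and they merged into 33 regions of the 33312 formed by all lists.

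Simple keratins form the intermediate filaments of single-layered epithelia, in which a type II chain (Krt7 or Krt8) pairs with a type I chain (Krt18 or Krt19). E-cadherin, the product of Cdh1, joins neighbouring cells at adherens junctions, and desmoplakin, the product of Dsp, ties keratin filaments to desmosomes. Epcam encodes a surface glycoprotein by which lung epithelium is sorted. Spint2 encodes a Kunitz-type inhibitor of membrane serine proteases. G9a, encoded by Ehmt2, methylates histone H3 at lysine 9, a mark of silent chromatin, and in human cells the repressor SNAI1 recruits it to the CDH1 promoter.

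Cells of adult C57BL/6 lungs, 6 to 12 weeks old, were gated for Epcam and Sca-1, without CD31 or CD45. They were divided by CD24 into negative (CD24neg), low (CD24low) and high (CD24high) populations, and ATAC-seq, which marks DNA that a transposase can reach, was run on 10000 cells per library. The design had 3 mice per arm. Lists of 10 of the 18 samples were used. Each population had G9ai replicates 2 and 3 and vehicle replicate 3, and CD24low had vehicle replicate 2 as well. Samples without a list (8) were not analysed here.

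A listed peak is an arm-specific one. Lists held 2552 to 12985 peaks, or 3.03% to 13.2% of the highest peak number in each library. In the 8 libraries with a replicate list, 98.2% to 99.6% of the peaks overlapped it. Over all 10 libraries, by contrast, only 13 to 105 peaks per list overlapped the opposite arm. Sites open in both arms are therefore mostly missing from the lists. The agreement of replicates is partly a property of the lists, and no read depth comes with them. Regions within a population are called G9ai-only when every G9ai library and no vehicle library had a peak there, and vehicle-only in the opposite case. The vehicle side of CD24neg and CD24high rests on 1 library each and has no replicate check.

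Of the 8 genes, 7 carried at least 1 arm-only region in some population, and Epcam, the gene of the sort marker, carried none. In CD24neg cells 5 of 8 genes held a G9ai-only region (Krt7, Krt8, Krt18, Cdh1 and Spint2) and 4 a vehicle-only region (Krt8, Cdh1, Dsp and Spint2). In CD24low cells 6 genes held a G9ai-only region (all but Krt19 and Epcam) and 2 a vehicle-only region (Krt19 and Dsp). In CD24high cells 3 genes held a G9ai-only region (Krt18, Krt19 and Cdh1) and 5 a vehicle-only region (Krt7, Krt19, Cdh1, Dsp and Spint2). Of all protein-coding genes, 57.1% held a region of any kind. The share with a G9ai-only region was 14.9% in CD24neg, 22.4% in CD24low and 11.3% in CD24high. With a vehicle-only region it was 26.8%, 10.8% and 35.6% in the same populations. All 6 shares of the 8 genes lay above these backgrounds, which cover every gene whatever its length or activity in lung. No test of the list was made. The G9ai-only counts of CD24neg and CD24low depended on the weaker peaks. In the higher-scoring 50% of each list they were 1 in CD24neg, where the vehicle-only count was still 4, and 2 in CD24low. When every list was cut to its 2552 highest scores the G9ai-only counts were 1 in CD24neg and 0 in CD24low. The vehicle-only counts were still 4 and 2, so they were the larger in both populations. The shares of all genes are not given for these shorter lists.

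**Figure D1:**
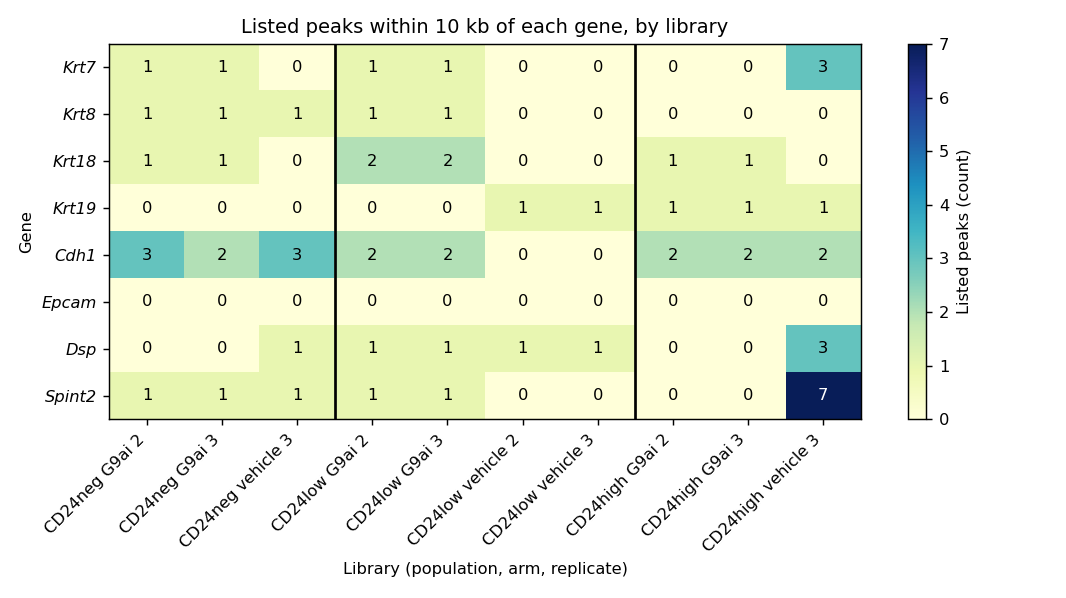
Number of listed peaks within 10 kb of each gene (rows) in each of the 10 libraries (columns, population, arm and replicate; colour and digit give the count). Spint2 had 7 peaks in the CD24high vehicle library, and the Epcam row is 0 throughout.

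The 8 genes made up a larger share of the G9ai lists than of the vehicle lists in each population, by few peaks (4 per G9ai list in CD24high). In CD24neg the share was 1.68 and 1.45 peaks per 1000 listed with G9ai, against 0.676 with vehicle. The peak counts there were close, 7 and 6 with G9ai and 6 with vehicle, while the lists held 4173, 4149 and 8870 peaks. Of the 7 peaks, 2 lay in 1 merged region of Cdh1. In CD24low the share was 1.08 and 1.09 with G9ai, against 0.782 and 0.784 with vehicle. CD24high had 1.43 and 1.42 with G9ai, against 1.23 with vehicle. The mean difference was 0.303 per 1000 in CD24low, resting on 8 peaks in each G9ai list and 2 in each vehicle list, and the differences summed to 1.38 per 1000 over the 3 populations. In the higher-scoring 50% of peaks the CD24low difference was -0.225. No p is given for these shares, because the lists were selected for agreement within an arm.

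Arm-only regions were dense around the genes on both sides of the comparison. The windows of the 8 genes span 347 kb. They held 17.3 G9ai-only regions per Mb in CD24neg, 23.1 in CD24low and 11.5 in CD24high, against 2.36, 4.15 and 1.68 per Mb in the windows of all protein-coding genes. Vehicle-only regions numbered 17.3, 5.76 and 46.1 per Mb around the 8 genes in the same populations, against 5.23, 1.52 and 7.74 per Mb around all genes. The ratio of these densities ran from 3.30 (vehicle-only, CD24neg) to 7.31 (G9ai-only, CD24neg). These densities rest on 2 regions (vehicle-only, CD24low) to 16 (vehicle-only, CD24high) around the 8 genes. The background covers every gene whatever its activity in lung, and the 8 genes were chosen with earlier results of these data known. Whether the density is particular to these genes was not tested.

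**Figure D2:**
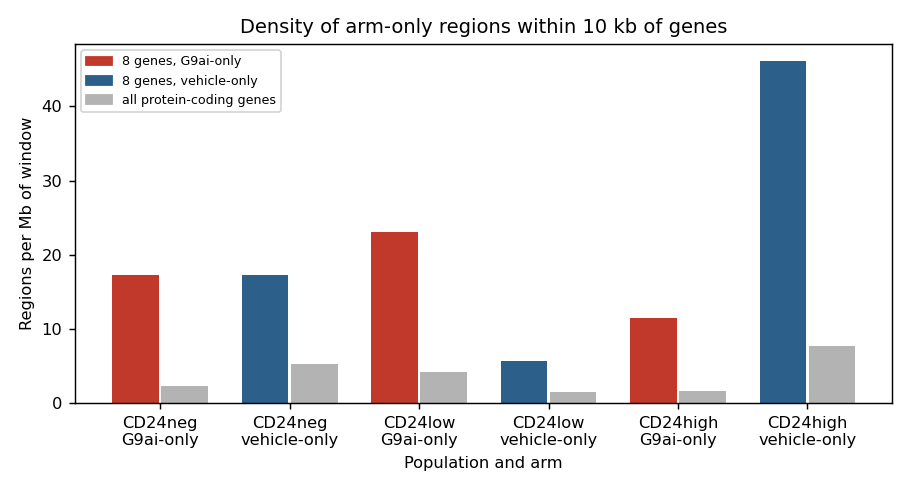
Regions per Mb of window (y axis, from 0) for G9ai-only and vehicle-only regions of each population (x axis), in the windows of the 8 genes (coloured bars) and of all protein-coding genes (grey bars). Each coloured bar is higher than its grey bar, with ratios of 3.30 to 7.31, and rests on 2 to 16 regions. Grey bars cover every gene whatever its activity in lung.

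Of the 33 regions, 16 lay inside the span of their gene and 17 in a flank. Of those in a flank, 6 lay inside the span of another protein-coding gene. Among all regions within 10 kb of a gene, 80.1% lay in a gene span, against 22 of 33 (66.7%) here when spans of neighbours are counted. Most regions were listed in 1 population: 26 of 33 (78.8%), against 85.2% of regions near genes. None of the 33 overlapped the start window of its own gene (250 bases before to 50 after a RefSeq transcription start), a window known here for 6 of the 8 genes and not for Krt19 or Cdh1.

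Within-list score ranks were used because the authors' peak score has no stated scale. Of the 63 peaks, 25 ranked above the 75th percentile of their list and 22 below the 50th. The median percentile was 60.8 and 62.3 in the CD24neg G9ai lists, against 92.1 in the vehicle list. It was 51.5 and 34.2 in the CD24low G9ai lists, against 49.1 and 69.0 with vehicle, where each list held only 2 of these peaks. In CD24high it was 84.2 and 79.5 with G9ai, against 70.5 with vehicle.

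**Figure D3:**
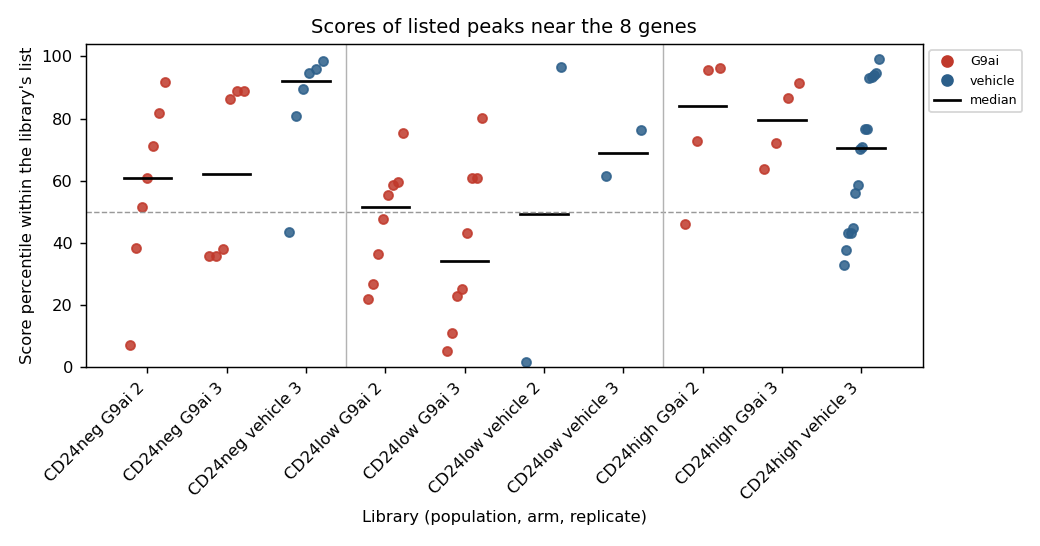
Score percentile of each listed peak near the 8 genes within its own library's list (y axis), by library (x axis), with G9ai in red, vehicle in blue and the median as a black bar. Medians ran from 34.2 (CD24low G9ai replicate 3) to 92.1 (CD24neg vehicle replicate 3).

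Krt18 was the member with listed peaks in G9ai libraries alone, within its 10 kb window. A CD24neg vehicle peak lay just outside that window, 10.043 kb from the gene span (chr15:102042069-102042259, score 124). A narrow region inside the gene, 770 bp past its start (chr15:102028986-102029078), was G9ai-only in CD24neg and in CD24high. Its CD24neg scores were 133 and 144, percentiles 91.7 and 88.8, and both peaks had the same coordinates, chr15:102028998-102029076. The CD24high scores were 184 and 153, percentiles 95.6 and 91.6. All 4 peaks stood high in their lists and were 71 to 91 bp wide, and no vehicle list and no CD24low list had a peak there. In CD24low 2 other sites were G9ai-only, 4035 bp before the start (scores 124 and 47) and 2693 bp past the higher-coordinate end (scores 78 and 44). These lower-ranked peaks varied more between replicates, from percentile 75.4 to 11.0 at the upstream site. Regions G9ai-only in at least 2 populations made up 2.53% of all regions near genes, and 3 of the 33 regions had this pattern, in Krt18, Krt7 and Cdh1. The set of populations and arms seen at Krt18 was shared by 35 other protein-coding genes.

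Krt8, the partner of Krt18, starts 23.9 kb away on the opposite strand, so that the genes point away from each other. Krt8 differed from Krt18 in having no region inside the gene and none in CD24high. In CD24neg cells a G9ai-only region lay 8297 bp past the gene, inside the span of Krt78 (chr15:101988256-101988414, scores 67 and 144). A vehicle-only region lay 1066 bp before the Krt8 start (chr15:102005408-102005554, score 158, percentile 89.4). In CD24low a G9ai-only region was listed 2061 bp before the start (chr15:102006403-102006615, scores 102 and 62). The flank upstream of Krt8 was thus listed with G9ai in CD24low and with vehicle in CD24neg, at neighbouring sites that did not overlap. The reference sequences just before the starts of this pair are printed because the regions between the genes flank them. They are the 250 bases before each start on the strand of the gene, from RefSeq (GRCm38.p6), chr15:102004343-102004592 for Krt8 on the minus strand and chr15:102027966-102028215 for Krt18 on the plus strand. Capitals mark CAGGTG or its reverse complement CACCTG, an E-box form bound by Snail and Zeb repressors, and GGGCGG or CCGCCC, the GC box bound by Sp and Klf factors.
Krt8: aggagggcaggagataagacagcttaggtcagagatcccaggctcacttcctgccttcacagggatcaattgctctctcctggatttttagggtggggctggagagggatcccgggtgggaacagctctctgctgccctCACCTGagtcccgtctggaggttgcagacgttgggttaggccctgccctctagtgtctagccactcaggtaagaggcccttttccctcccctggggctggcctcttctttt
Krt18: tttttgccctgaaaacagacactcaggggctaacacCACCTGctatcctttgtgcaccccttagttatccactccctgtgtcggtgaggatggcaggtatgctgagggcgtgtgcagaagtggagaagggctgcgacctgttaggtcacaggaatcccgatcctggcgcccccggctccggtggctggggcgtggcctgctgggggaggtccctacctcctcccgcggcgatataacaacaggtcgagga
Each sequence held 1 E-box and no GC box, and in no member sequence did an E-box overlap a GC box. Of the 6 genes with a start window, 5 held the E-box (all but Dsp), against 17.2% of 32817 RefSeq windows of the same length, and 4 held the GC box (all but Krt8 and Krt18), against 32.7%. These matches are letters in the reference, not measured binding, and the shares were not matched for base content. The 6 sequences ran from 56.4% GC (Epcam) to 72.4% (Dsp), against a median of 52.4% over all windows.

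Krt7, the type II keratin of glandular and airway epithelium, had its listed peaks outside the gene. Downstream of it, within the span of Krt87, a region (chr15:101436648-101436868) was G9ai-only in CD24neg with scores 93 and 73 and in CD24low with scores 65 and 74. The CD24high vehicle library also listed it, with a score of 94. The percentiles ran from 22.1 to 71.3 over these 5 lists. Another vehicle-only site of CD24high lay in Krt87 (chr15:101435052-101435346, score 113), and a further one lay 1326 bp before the Krt7 start (chr15:101410908-101411077, score 223, percentile 94.1). No vehicle peak near Krt7 was listed in CD24neg or CD24low.

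Krt19, a type I keratin of ductal and airway epithelium, was the keratin with no G9ai-only region in CD24neg or CD24low. In CD24low a vehicle-only region was listed, 1119 bp beyond the lower-coordinate end of the gene (chr11:100139454-100139691, scores 137 and 85, percentiles 96.5 and 61.6). In CD24high both arms had a region at different sites. The G9ai-only site lay 7136 bp outside the higher-coordinate end (chr11:100153062-100153196, scores 189 and 108), and the vehicle-only site lay inside the gene, 514 bp from that end (chr11:100145198-100145412, score 229, percentile 94.7).

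**Figure D4:**
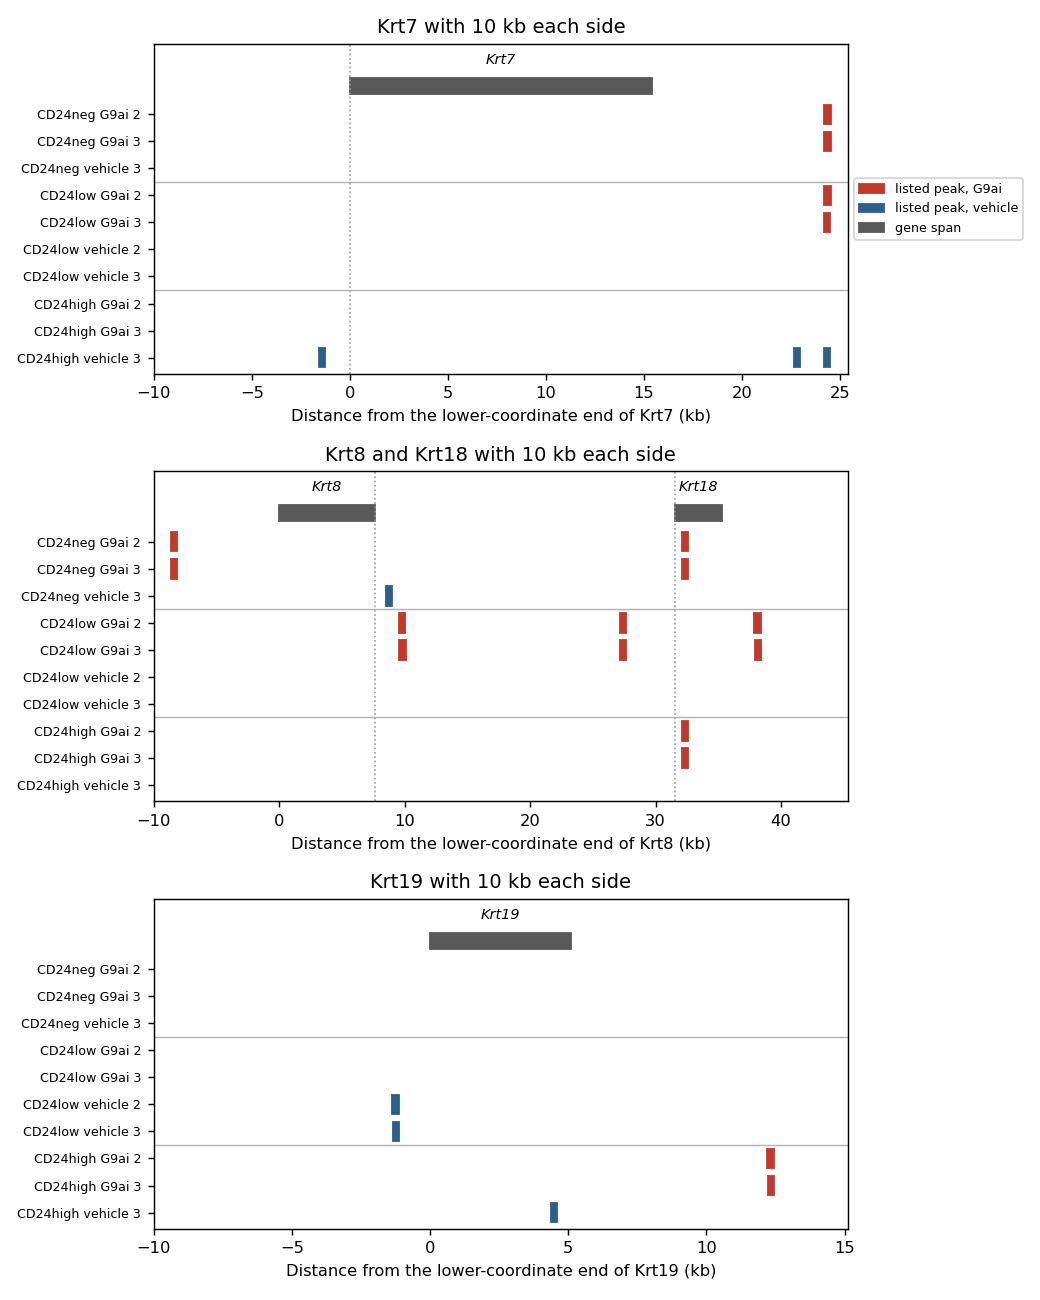
Listed peaks around Krt7, Krt8 with Krt18, and Krt19. The x axis is the distance in kb from the lower-coordinate end of the first gene of a panel, rows are libraries, red and blue bars are G9ai and vehicle peaks (narrow ones widened to be visible), grey boxes are gene spans and dotted lines are known starts. The site inside Krt18 is red in CD24neg and CD24high, and the Krt8 and Krt18 windows hold 1 blue bar.

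Cdh1 had the most regions, 11 when counted within populations, all inside its 66.9 kb span. Like Krt18 it had G9ai-only regions in every population, and CD24neg and CD24high also had vehicle-only regions. A G9ai-only site at chr8:106640804-106641210, near the middle of the span, was shared by CD24neg and CD24low. Its best scores were 107 and 75 in CD24neg and 97 and 74 in CD24low. CD24neg held another at chr8:106656227-106656326 (scores 49 and 137) and CD24low another at chr8:106632783-106633007 (scores 70 and 53). In CD24high the G9ai-only sites were nearer the lower-coordinate end, at 3283 bp (chr8:106606633-106606830, scores 111 and 98) and 7739 bp (chr8:106611089-106611244, scores 82 and 137).

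The vehicle-only sites of Cdh1 lay elsewhere in the gene. A broad vehicle-only site 13.9 kb from the lower-coordinate end (chr8:106617227-106617676) had a score of 243 in CD24neg, percentile 98.6, and of 216 in CD24high, percentile 93.2. No G9ai list held it. Vehicle-only regions further into the gene were listed in CD24neg (scores 134 and 86 at chr8:106626259-106626458 and chr8:106646234-106646394) and in CD24high (score 109 at chr8:106627731-106628021). No site of Cdh1 was listed in opposite arms. CD24low vehicle lists had no peak at Cdh1.

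Dsp held 1 G9ai-only region and 5 vehicle-only regions. A site 2542 bp past the start (chr13:38153836-38154031) was G9ai-only in CD24low, with scores of 89 and 54, percentiles 47.8 and 25.3. In the CD24high vehicle library it had a score of 355 and the highest rank of all 63 peaks, percentile 99.1. It was thus listed on opposite sides in the 2 populations. Beside it the CD24high vehicle library listed sites 4193 and 7125 bp past the start (scores 92 and 132). In CD24low vehicle cells a site 5686 bp before the start (chr13:38145432-38145608) had scores of 41 and 101, near the bottom of one list (percentile 1.78) and high in the other (76.4). The CD24neg vehicle region lay past the gene, within Snrnp48 (chr13:38205192-38205315, score 185).

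Spint2 had 10 regions counted within populations, 7 of them from the CD24high vehicle library, which had the longest list. Just before the gene, 236 bp outside its span, a site (chr7:29282295-29282465) was G9ai-only in CD24low with scores of 101 and 92. It was vehicle-only in CD24neg with a score of 194, percentile 95.8, and in CD24high with a score of 146, percentile 76.8. CD24low thus listed it with the inhibitor, and the other populations listed it with vehicle. A second site, 7176 bp outside the span (chr7:29289235-29289413), covered the start of the neighbour Ppp1r14a, which encodes an inhibitor of myosin phosphatase. It was G9ai-only in CD24neg with scores of 82 and 73 and vehicle-only in CD24high with a score of 146. It was the only one of the 33 regions on a RefSeq start window, against 8.62% of regions near genes. The other CD24high vehicle sites lay inside Spint2 (scores 218 and 133), 68 bp past its far end (80), upstream of it (86) and across the neighbours Yif1b and 2200002D01Rik (92).

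The 250 bases before both starts are printed since the sites lie beside or on them, from RefSeq (GRCm38.p6), 5′ to 3′ on the strand of the gene. Spint2 is on the minus strand (chr7:29281978-29282227), its listed site lies beyond the first base printed, and capitals mark the same E-box and GC box letters as above. Ppp1r14a is on the plus strand (chr7:29289070-29289319), and its capitals mark the 85 bases that fall in the merged region. The peak of CD24neg G9ai replicate 3 covers all of them. That of replicate 2 starts at base 29289292, and that of the CD24high vehicle library at base 29289278.
Spint2: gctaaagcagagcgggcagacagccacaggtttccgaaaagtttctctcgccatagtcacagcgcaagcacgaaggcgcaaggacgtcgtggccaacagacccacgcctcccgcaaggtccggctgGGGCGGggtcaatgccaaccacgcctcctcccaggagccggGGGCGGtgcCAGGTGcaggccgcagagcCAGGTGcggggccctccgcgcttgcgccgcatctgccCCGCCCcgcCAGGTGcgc
Ppp1r14a: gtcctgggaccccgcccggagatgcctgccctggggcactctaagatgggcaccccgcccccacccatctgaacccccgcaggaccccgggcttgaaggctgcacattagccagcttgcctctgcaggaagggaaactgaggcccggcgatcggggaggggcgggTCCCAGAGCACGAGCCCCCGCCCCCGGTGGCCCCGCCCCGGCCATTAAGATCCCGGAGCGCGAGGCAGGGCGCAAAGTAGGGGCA
Spint2 held 3 E-boxes and 3 GC boxes, and Ppp1r14a 5 GC boxes and no E-box.

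**Figure D5:**
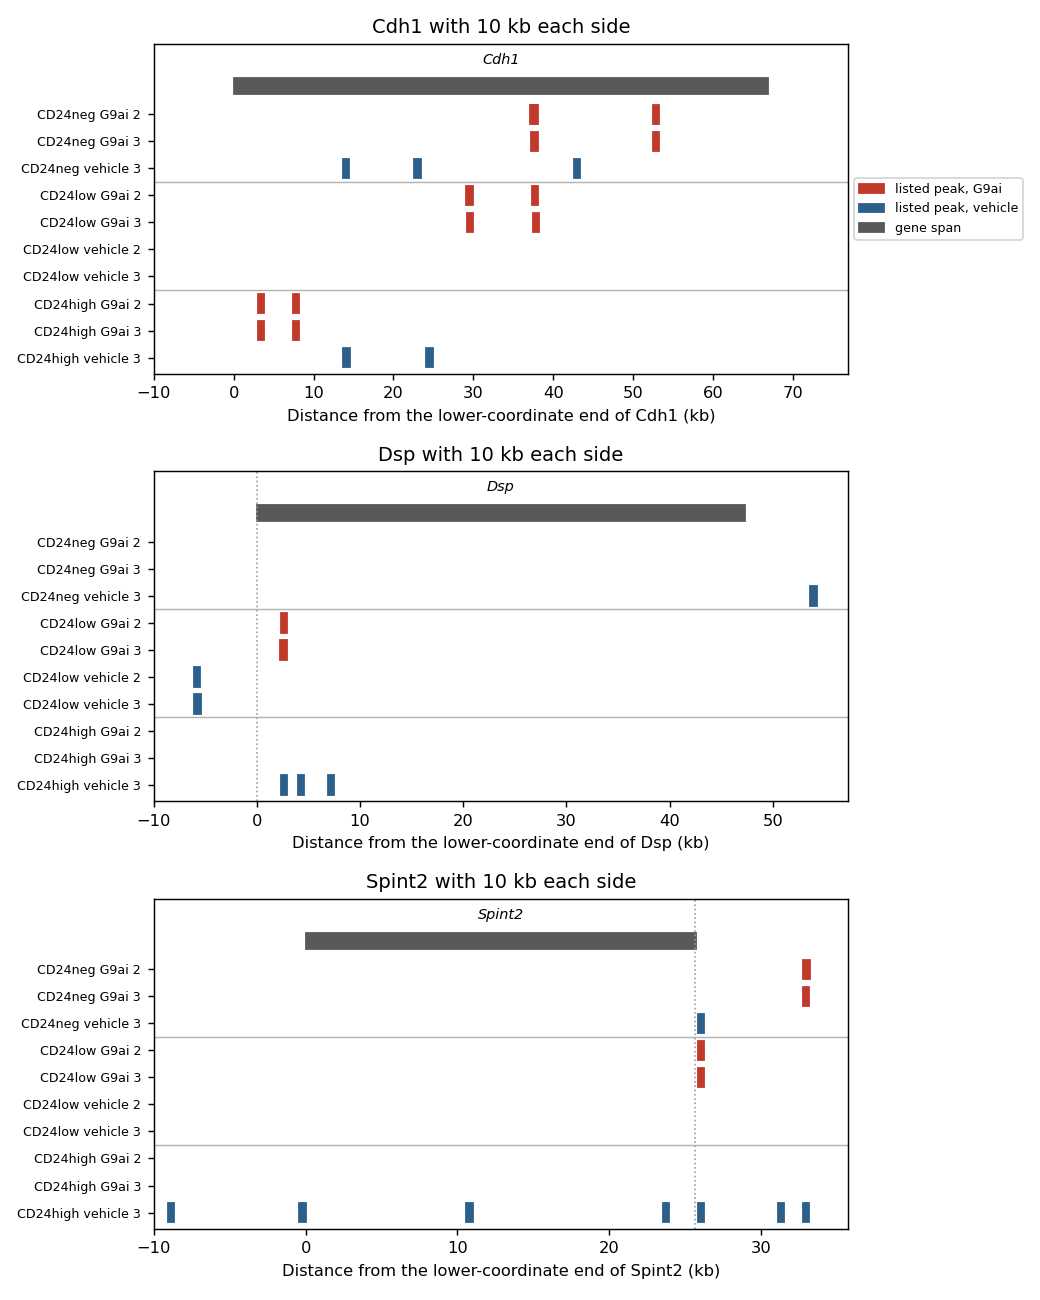
Listed peaks around Cdh1, Dsp and Spint2, drawn as in the keratin maps (x axis in kb from the lower-coordinate end of the gene, rows are libraries, red G9ai, blue vehicle, dotted lines known starts). Cdh1 has red and blue bars at separate sites, whereas the site past the Dsp start and the site before Spint2 are red in CD24low and blue in CD24high.

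Sites listed on opposite sides in different populations numbered 4 of 33, in Krt7, Dsp and Spint2 (2 sites), against 7.18% of regions near genes. Sites that were vehicle-only in at least 2 populations numbered 2, in Cdh1 and Spint2, against 5.75%. With so few regions these shares are descriptions of the sites named.

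Epcam had no listed peak within 10 kb in any library. The nearest G9ai peak lay 25.9 kb from its span (CD24neg, score 199), and the nearest vehicle peak 14.4 kb from it (CD24neg, score 91). As sites open in both arms are mostly not listed, this says nothing about how open the gene was. Another 9384 protein-coding genes likewise had no region. At the edge of the 10 kb windows, the farthest peak inside was 8.93 kb from Krt7 (CD24neg G9ai, score 73), and the nearest outside was 10.0 kb from Krt18 (CD24neg vehicle, score 124).

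Genes that work with the 8 members were counted in the same way. Of 17 genes of adherens junctions and desmosomes, 7 held a G9ai-only region and 11 a vehicle-only region in CD24neg, 9 and 6 in CD24low, and 3 and 11 in CD24high. Beside these counts stand the shares of all genes, 14.9% and 26.8% in CD24neg, 22.4% and 10.8% in CD24low, and 11.3% and 35.6% in CD24high. Ctnnb1, which encodes beta-catenin, the cytoplasmic partner of E-cadherin, held G9ai-only regions in CD24neg and CD24low and vehicle-only regions in CD24neg and CD24high. Pkp2 and Evpl, which encode desmosomal plaque proteins, held G9ai-only regions in CD24low and vehicle-only regions in CD24neg, and Pkp2 also a vehicle-only region in CD24high. Among 12 related keratin, Epcam and protease genes, 2 and 4 held G9ai-only and vehicle-only regions in CD24neg, 4 and 3 in CD24low, and 1 and 5 in CD24high, against the same background. St14, which encodes matriptase, a protease that Spint2 inhibits, held regions of both arms in CD24neg. Cldn7, whose product binds Epcam protein, held a vehicle-only region in CD24low. Krt15 lies beside Krt19 and shares the vehicle-only regions named above.

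Regulators of these genes were listed as well. A list of 12 regulators of the epithelial state held the repressors Ovol1 and Ovol2 and the splicing regulator Esrp1 beside activators. Of the 12, 3 held G9ai-only and 7 vehicle-only regions in CD24neg, 1 and 2 in CD24low, and 5 and 8 in CD24high. The CD24low genes were Klf5 with G9ai, and Ovol2 and Klf4 with vehicle. The vehicle-only count was the larger in all 3 populations, while the shares of all genes (G9ai-only and vehicle-only) were 14.9% and 26.8% in CD24neg, 22.4% and 10.8% in CD24low, and 11.3% and 35.6% in CD24high. Grhl2, a direct activator of Cdh1, held regions of both arms in CD24neg and a vehicle-only region in CD24high. Of 6 repressors of Cdh1, Snai1 held a G9ai-only region in CD24neg, and Zeb1 and Zeb2 held G9ai-only regions in CD24low. On the vehicle side Zeb1 and Tcf3 were listed in CD24neg and Zeb2 and Tcf3 in CD24high.

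Markers of cells outside the gate followed the longer list of each population, as did the shares of all genes. These shares (G9ai-only and vehicle-only) were 14.9% and 26.8% in CD24neg, 22.4% and 10.8% in CD24low, and 11.3% and 35.6% in CD24high. Of 5 endothelial genes, 0 held a G9ai-only region and 3 a vehicle-only region in CD24neg, 3 and 0 in CD24low, and 0 and 4 in CD24high. For 5 leukocyte genes the counts were 0 and 2, 1 and 0, and 0 and 2, and for 5 mesenchymal genes 0 and 1, 2 and 0, and 0 and 3. The site before Spint2 was on the side of the longer list in every population. The Dsp site was on that side in CD24low and CD24high, and CD24neg did not list it. The other opposite-side sites, in Krt87 and at the Ppp1r14a start, were G9ai-only in CD24neg, the side of the shorter list. Both were on the side of the longer list in CD24high, and the Krt87 site also in CD24low. None of the 15 marker genes held a G9ai-only region in CD24neg, against 14.9% of all genes. With so few genes this count is a description only. The part of cells outside the gate, or of list length, in these sites was not tested. The sort marker Epcam and the other epithelial genes cannot be checked as open from arm-specific lists.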

How the data were processed

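ATAC-seq libraries of sorted mouse lung cells were processed with FastQC, Bowtie2 and MACS2 on build mm10, per the submitters' processing notes. Tool versions, read shifting and peak thresholds: not given in the sources used here. The deposited lists give intervals, called per library as the peak names show, and the authors' peak score, whose scale is not stated. Scores were ranked within a list as mid-rank percentiles. Repeated lines (47 to 472 per list) were dropped. The rule by which the authors selected the listed peaks is likewise unstated.

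Peaks that shared at least 1 bp were merged within each population, and over all 10 lists for comparisons between populations. Regions were assigned to protein-coding genes by the RefSeq span plus 10 kb, without exons. Named genes are all 8 members and, from the other lists, genes that held a region being counted. The genes and lists were chosen with earlier results of these data known. Exact permutation tests of the share of peaks near the 8 genes were planned, but their p-values are not given: the lists were selected for agreement within an arm, and the genes were chosen with results known. The peak names of one replicate carry the same prefix in all populations of an arm, so these libraries may not be independent mice. Assignment was tested on simulated data with 200 planted regions. Start windows, strands and sequences came from RefSeq tables of GRCm38.p6, and windows on opposite strands that overlapped matched after reverse complement in 1702 of 1702 cases. Python 3.11.15 and pandas 2.3.3 were used. Alternatives were other windows, score cuts, overlap and replicate rules, repeated lines kept, and leaving out each of the 8 libraries that have a replicate list.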

Additional observations from a re-analysis of the deposited data

Results flagged for a closer look

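The following sites were G9ai-only in some population and vehicle-only in another, and the difference between populations was not tested. The site past the Dsp start had a mean score of 71.5 in the CD24low G9ai lists and was vehicle-only in CD24high. The site in Krt87 downstream of Krt7 had mean scores of 83.0 in the CD24neg and 69.5 in the CD24low G9ai lists and was vehicle-only in CD24high. The site before Spint2 had a mean score of 96.5 in the CD24low G9ai lists and was vehicle-only in CD24neg and CD24high. The site over the Ppp1r14a start had a mean score of 77.5 in the CD24neg G9ai lists and was vehicle-only in CD24high. The vehicle side of each of these sites rests on 1 library per population.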

How the results depend on the processing

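The counts of genes with an arm-only region depended on the window and on the weaker peaks. With 1 kb on each side, 2 genes held a G9ai-only and 2 a vehicle-only region in CD24neg, and 3 and 0 in CD24low. With the gene span alone the counts were 2 and 1 in CD24neg and 2 and 0 in CD24low. In the higher-scoring 50% of peaks, 1 gene held a G9ai-only region in CD24neg, and 2 held a G9ai-only and 1 a vehicle-only region in CD24low. With lists of equal length the G9ai-only count was 1 in CD24neg and 0 in CD24low, and the vehicle-only counts were 4 and 2. The shares of all protein-coding genes are not given at these settings, so the changes cannot be set against a background. The cause of these changes was not tested. In CD24high the gene counts of 3 and 5 became 2 and 4 with 1 kb on each side and with the span alone. They were unchanged under the other alternatives. Regions per gene moved more there: with the span alone, vehicle-only regions fell from 7 to 2 at Spint2 and from 3 to 0 at Krt7. All gene counts stayed the same with repeated lines kept and with at least 50% of a region inside the window. The same held with each of the 8 replicated libraries left out in turn, and with a peak in at least 1 library of the arm. Replicate lists were nearly the same, partly a property of the lists, so these last alternatives could hardly change a count. The lone vehicle libraries of CD24neg and CD24high could not be left out. The CD24low difference in peaks per 1000 was -0.225 in the higher-scoring 50% of peaks, and the sum over populations was 1.37 there. With a replicate block, pairing libraries by number, the values were 0.303 and 1.26, and the shared numbers are not stated to pair mice. Leaving out 1 of these 8 libraries gave 0.301 to 0.304 and 1.26 to 1.496. Depth is unknown, and sites open in both arms are mostly not seen.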
